A study of Homo sapiens with 24 samples.

Results

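UQCC3, CSKMT and LBHD1 are neighbouring genes on the long arm of human chromosome 11, and the values described here are the reads counted under these 3 names. They are 3 of the 61578 names in each count table, and all 3 passed the filter on low counts, which kept 12822. The genes were selected on the rise of their own read counts: UQCC3 and CSKMT were chosen by being higher in LPDS than in FBS in all 4 lines. That rise is therefore given as a description with no test, and so is everything built on the contrast of media. LBHD1 was taken because it lies across both other genes on the opposite strand. Comparisons of lines within a medium were not used in the choice and were tested.

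The cells are HGC27, a human line established from a gastric carcinoma. RNA was measured in 24 libraries, which make 8 groups of 3 biological replicates. Every group was grown for 3 days in high-glucose DMEM with either FBS or LPDS. The labels do not expand these names, which usually mean fetal bovine serum and serum depleted of lipoproteins. The lines are parental HGC27, SGCTRL, which is wild type and carries a control guide, and SG12 and SG21, both labelled as TMEM97 knockouts. TMEM97 is the sigma-2 receptor, a membrane protein of the endoplasmic reticulum and lysosome with ties to cholesterol transport. Whether a line is 1 clone or a pool, and where the edits lie, is not given in the sources used here.

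UQCC3 is a small protein of the inner mitochondrial membrane that helps to assemble complex III, the part of the respiratory chain that passes electrons from ubiquinol to cytochrome c. CSKMT is a mitochondrial methyltransferase that modifies a lysine of citrate synthase, the enzyme that feeds acetyl groups into the tricarboxylic acid cycle. LBHD1 is a little-studied gene whose protein has no role that is firmly established. Serum without lipoproteins withholds cholesterol from cells, which then activate the SREBP transcription factors and, through them, the genes of sterol synthesis and uptake.

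The library kit keeps strand, and in these tables most reads were counted on the strand opposite to the named gene. Vimentin shows this: the VIM entry held group means of 50.5 to 269 CPM, that is read counts scaled to a common library size, while VIM-AS1, which overlaps VIM on the other strand, held 14300 to 30800 CPM. For the present genes this turns the names around. UQCC3 (ENSG00000204922, hg38, chr11:62670273-62673687) and CSKMT (ENSG00000214756, chr11:62665309-62668496) are on the plus strand, and LBHD1 (ENSG00000162194, chr11:62662817-62672255) is on the minus strand. Reads under UQCC3 and CSKMT are thus mostly minus-strand RNA, for which LBHD1 is the annotated source. Reads under LBHD1 are mostly plus-strand RNA, for which UQCC3 and CSKMT are the annotated sources. The names below refer to the entries in the count tables, not to the messages of those genes.

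Exons of LBHD1 cover 701 bases of the UQCC3 exons in 3 pieces, which is 29.2% of them. They cover 533 bases, or 16.7%, of the CSKMT exons in 1 piece. The kit also keeps unspliced RNA, and the whole CSKMT exon span of 3185 bases and 966 bases of the UQCC3 exons lie between the ends of LBHD1. Reads of LBHD1 introns and of any unannotated minus-strand RNA would therefore be counted too, and the tables do not separate them. C11orf98, a minus-strand gene that starts just before CSKMT, does not reach the CSKMT exons.

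**Figure D1:**
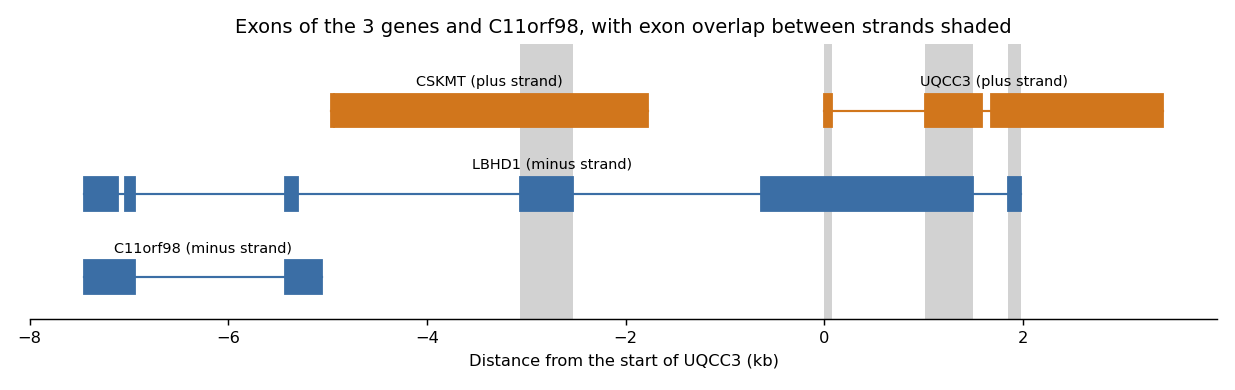
Exons (boxes) of UQCC3 and CSKMT on the plus strand and of LBHD1 and C11orf98 on the minus strand, against distance from the start of UQCC3 in kb. Grey bands mark the 701 bases of UQCC3 exons and the 533 bases of CSKMT exons that LBHD1 exons cover.

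3 short stretches show how tightly the strands interlock. The first holds the start codons of UQCC3 and LBHD1, read on the plus strand, with both codons in capitals. The UQCC3 codon begins at base 62671746 and reads rightwards, the LBHD1 codon begins at base 62671747 and reads leftwards, and they share 2 bases. The second is the 5′ end of the LBHD1 exon that CSKMT overlaps, read on the minus strand, with no part marked. The third lies before the start of LBHD1, read on the minus strand, and its capitals mark a match to the core of a sterol regulatory element on the plus strand. The first 2 are from GENCODE release 29 transcripts (hg38), the third from the RefSeq promoter table (GRCh38.p14).
UQCC3 and LBHD1 start codons, chr11:62671732-62671761: ctgtgcaggcggcCATGgattccttgcgga
LBHD1 exon read under CSKMT, chr11:62667718-62667747: gctgggcttggagcccacaggaccctagaa
Before LBHD1, chr11:62672451-62672480: agcctcttctgGTGGGGTGggacaggcagc

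Promoter windows of 300 bases, from 250 before to 50 after the gene start, were at hand for 2 of the 3 genes, LBHD1 and CSKMT. The sterol regulatory element core CACCCCAC, the element that SREBP binds, occurred once in the LBHD1 window, 202 bases before the start, and not in the CSKMT window. It occurs on either strand in 2.79% of the 35116 windows in the table. The letters CCAAT, the motif of NF-Y, a factor that often binds beside SREBP, occurred 2 times in the LBHD1 window and 1 time in the CSKMT window. They occur in 34.6% of all windows. The sterol core occurs with any NF-Y motif in 0.812% of all windows. It occurs with at least 2 in 0.214%, a cut set at the count seen in the LBHD1 window. The E-box CACGTG, present in 7.26% of windows, and the stress-response motif TGATGNAA, present in 3.62%, were in neither. The sterol core match and both NF-Y matches of the LBHD1 window lie inside UQCC3 exons. All these motif matches are descriptions of letters and no binding was measured.

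Uniquely aligned reads numbered 44.1 to 102 M per library. Of these, 94.3% to 94.6% fell on no gene, which left 2.4 to 5.54 M reads on named genes. The UQCC3 entry rests on 119 to 2164 reads per library, CSKMT on 84 to 1279 and LBHD1 on 548 to 1456. Libraries also fall apart by the share of ambiguous reads among those on genes. 8 libraries, all 6 of SGCTRL and replicates 2 and 3 of SG21 in LPDS, had 2.10% to 2.24%, and the other 16 had 2.58% to 3.15%. SGCTRL therefore differs from parental cells, from SG12 and, in FBS, from SG21 in this technical measure as well as in line. The measure and the line cannot be told apart in those comparisons. The labels call the cells epithelial. Under their own names EPCAM, CDH1, KRT7, KRT8, KRT18, KRT19 and ESRP1 had group means of at most 1.11 CPM, while CLDN4 had 13.4 to 52.3 CPM, ELF3 2.51 to 21 CPM and CLDN7 3.41 to 7.17 CPM. Of the leukocyte markers PTPRC, CD3E, CD14, CD79A and LYZ had at most 0.492 CPM and CD68 had 16.9 to 30.3 CPM. Such entries mostly hold the other strand, so they say little of these genes' messages. Read on the opposite strand, CDH1 had at most 2.18 CPM, KRT7 at most 3.46 CPM and KRT8 and KRT18 at most 1.11 CPM. Of mesenchymal markers besides VIM, SPARC had 87.1 to 132 CPM in that reading, ZEB2 35.2 to 99, TWIST1 23.8 to 88.7, ZEB1 5.97 to 16.2 and CDH2 at most 1.06. Under their own names gastric TFF1, TFF2, MUC5AC, MUC6, GKN1 and PGC had at most 0.907 CPM and ATP4A 2.11 to 7.3. Fibroblast COL1A1 had 32.9 to 228 CPM by own name, COL3A1 16.5 to 183, COL1A2 0.189 to 5.91, and DCN, LUM and PDGFRB at most 2.86. TMEM97 RNA is read under IFT20, and in FBS stood at 52.8 ± 4.1 CPM (SD, n = 3) in SG12, 76 ± 2.96 in SG21, 105 ± 14.9 in parental cells and 131 ± 12.8 in SGCTRL. In LPDS it stood at 124 ± 3.92 CPM in SG21, 153 ± 14.9 in parental cells, 162 ± 11.5 in SGCTRL and 195 ± 16.8 in SG12. With the edited sites unknown, this does not check the knockouts.

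The UQCC3 entry, the minus-strand reading, was low in FBS and high in LPDS in every line. In parental cells it stood at 52.9, 34.9 and 50.7 CPM in FBS and at 280, 226 and 283 CPM in LPDS. In SGCTRL it stood at 66, 73.2 and 77 CPM in FBS and at 408, 366 and 382 CPM in LPDS. In SG12 the values were 57.8, 62.9 and 76.8 CPM in FBS and 345, 425 and 533 CPM in LPDS. In every one of these lines the lowest LPDS library lay well above the highest FBS library. In SG21 the values were 47.8, 43.4 and 43.4 CPM in FBS and 219, 221 and 223 CPM in LPDS. The LPDS libraries of SG21 were nearly equal, while those of SG12 were the most spread.

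On the log2 scale the UQCC3 difference between LPDS and FBS was 2.72 ± 0.14 (SE) in SG12, 2.51 ± 0.14 in the parental line, 2.42 ± 0.14 in SGCTRL and 2.30 ± 0.14 in SG21. In the same order these are 6.61-fold, 5.71-fold, 5.34-fold and 4.93-fold. Among the 9545 entries whose log2 CPM averaged at least 2, UQCC3 ranked 3 by fold in parental cells, SGCTRL and SG21, and 20 in SG12. In the same contrast SG12 had 22.5% of all tested entries past an adjusted p of 0.05, parental cells 4.55%, SG21 3.83% and SGCTRL 2.33%. LPDS above FBS with no overlap in all 4 lines was seen in 106 of 12822 entries, or 0.827%. UQCC3 and CSKMT are among them by the way they were chosen.

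The CSKMT entry, read over another exon and the introns of LBHD1, moved in the same way at a lower level. Its values were 39.7, 28.7 and 34.1 CPM in FBS and 137, 120 and 168 CPM in LPDS in parental cells. SGCTRL had 45.3, 59.3 and 58 CPM in FBS and 223, 206 and 226 CPM in LPDS. SG12 had 37.9, 56.5 and 53.8 CPM in FBS and 198, 223 and 286 CPM in LPDS. The media again did not overlap, and replicate 3 of SG12 in LPDS was the highest library for both entries. SG21 had 32.9, 31.5 and 30.6 CPM in FBS and 123, 121 and 129 CPM in LPDS. The differences were 2.05 ± 0.16, 2.01 ± 0.15, 2.25 ± 0.15 and 1.98 ± 0.16 on the log2 scale in parental, SGCTRL, SG12 and SG21 cells, or 4.13-fold, 4.02-fold, 4.77-fold and 3.94-fold.

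The LBHD1 entry, the plus-strand reading, did not rise. It stood at 298, 403 and 295 CPM in FBS and 261, 238 and 228 CPM in LPDS in parental cells, where the media did not overlap. In SGCTRL the values were 203, 214 and 200 CPM in FBS and 201, 194 and 180 CPM in LPDS, and the media overlapped. In SG12 they were 243, 272 and 238 CPM in FBS and 243, 207 and 217 CPM in LPDS, again with overlap. In SG21 they were 370, 364 and 340 CPM in FBS and 378, 252 and 201 CPM in LPDS. The 2 low libraries of SG21 are those with few ambiguous reads, and the high one belongs with the rest in that measure. The log2 differences were -0.46, -0.10, -0.17 and -0.37 (each ± 0.14) in parental, SGCTRL, SG12 and SG21 cells. With replicate 1 as the lone SG21 library in LPDS the last value was 0.07, so its direction rests on those libraries.

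**Figure D2:**
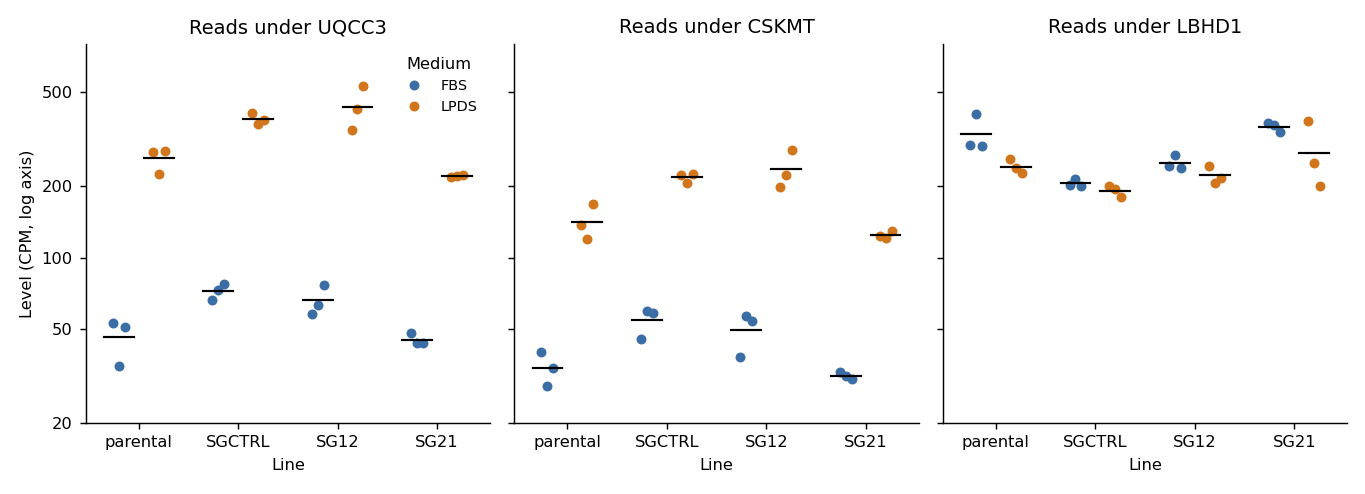
Level of each entry in 24 libraries (CPM, log axis) by line and medium, with a point per library and a bar at the mean of 3. UQCC3 and CSKMT are higher in LPDS (orange) than in FBS (blue) without overlap in every line, and LBHD1 is not.

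The UQCC3 and CSKMT rises differed between lines by far less than they measured. For UQCC3 the log2 response in parental cells minus that in SGCTRL was 0.10 ± 0.19 (SE), that of SG12 minus SGCTRL 0.31 ± 0.19 and that of SG21 minus SGCTRL -0.11 ± 0.19. Without SG12 replicate 3 in LPDS the SG12 minus SGCTRL value was 0.05, and without SG12 replicate 1 in FBS it was 0.17. The widest gap was between SG12 and SG21, at 0.42 ± 0.19. For CSKMT the matching values against SGCTRL were 0.04 ± 0.21, 0.25 ± 0.21 and -0.03 ± 0.22. The SG12 value was 0.00 without SG12 replicate 3 in LPDS, 0.03 without its replicate 1 in FBS, and 0.10, 0.15 and 0.13 without SGCTRL replicate 2 or 3 in FBS or replicate 2 in LPDS. That SG12 had the largest rise of UQCC3 and CSKMT thus rests on single libraries: without its replicate 3 in LPDS the SG12 rises were 2.47 and 2.01. These differences come from the contrast that chose the entries and carry no test. For scale, HMGCS1, an early enzyme of sterol synthesis read under ENSG00000261604, rose by 2.47 ± 0.10 in SG12, 1.26 ± 0.10 in the parental line, 1.18 ± 0.10 in SG21 and 0.97 ± 0.10 in SGCTRL. LSS, lanosterol synthase, read under ENSG00000223901, rose by 2.07 ± 0.10, 1.03 ± 0.10, 1.08 ± 0.10 and 0.77 ± 0.10 in the same order. The adjusted p of these 8 rises was at most 1.77e-07 (edgeR quasi-likelihood test). Both sterol genes had their largest value in SG12.

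Within a medium the lines also differed in level, by less than the media did, and the order of their means did not follow the knockout labels. SGCTRL and SG12 were the higher lines for UQCC3 and CSKMT, and parental cells and SG21 the lower ones, in both media. UQCC3 group means in FBS rose from 44.9 ± 2.5 CPM (SD, n = 3) in SG21 and 46.2 ± 9.85 in parental cells, which overlapped, to 65.9 ± 9.82 in SG12 and 72.1 ± 5.57 in SGCTRL, which also overlapped. In LPDS the order was 221 ± 2.13 in SG21, 263 ± 32 in parental cells, 385 ± 20.8 in SGCTRL and 434 ± 94.5 in SG12, and only the last 2 overlapped. SG21 and parental cells were barely apart, with a highest SG21 library of 223 CPM and a lowest parental library of 226 CPM. Their difference did not pass (edgeR, adjusted p = 0.223). The share of all tested entries with such gaps was not counted. CSKMT kept the same order of groups, from 31.7 ± 1.13 CPM in SG21 in FBS to 236 ± 45.4 CPM in SG12 in LPDS. Parental cells and SG12 overlapped for CSKMT in FBS, as did SG21 and parental cells in LPDS.

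SG21 was lower than SGCTRL in both entries and both media. For UQCC3 the log2 difference was -0.69 ± 0.14 (SE) in FBS (adjusted p = 0.000493, edgeR quasi-likelihood test) and -0.80 ± 0.13 in LPDS (adjusted p = 9.15e-06). For CSKMT it was -0.78 ± 0.16 in FBS (adjusted p = 0.000357) and -0.81 ± 0.14 in LPDS (adjusted p = 3.6e-05). All 3 SG21 libraries lay below all 3 SGCTRL libraries in each of the 4 cases. Both entries were read in the same libraries, so these cases are not independent. How many of all tested entries part in this way was not counted. Of all tested entries 14% passed in FBS and 10.9% in LPDS in this comparison. With a term for the split of libraries by ambiguous reads the values in FBS were -0.67 and -0.75 but no longer passed (adjusted p = 0.211 and 0.184).

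SG12 did not pass against SGCTRL for any of the 3 entries, where 25.2% of all entries passed in FBS and 11.1% in LPDS. UQCC3 differed by -0.14 in FBS (95% interval -0.41 to 0.14, adjusted p = 0.531) and by 0.17 ± 0.13 in LPDS (adjusted p = 0.436). CSKMT differed by -0.14 in FBS (95% interval -0.44 to 0.17, adjusted p = 0.572) and by 0.11 ± 0.14 in LPDS (adjusted p = 0.687). The signs of these small values turned when single libraries were left out, with values from -0.18 to 0.33.

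The 2 wild-type lines also differed. SGCTRL was above parental cells by 0.65 ± 0.15 for UQCC3 (adjusted p = 0.00126) and 0.67 ± 0.16 for CSKMT (adjusted p = 0.0025) in FBS, where 18.3% of all entries passed. In LPDS it was above by 0.55 ± 0.13 (adjusted p = 0.0165) and 0.63 ± 0.14 (adjusted p = 0.0124), where only 0.811% passed. The LPDS calls are fragile. That for UQCC3 was lost without parental replicate 2 or 3 or any one of the SGCTRL replicates, and that for CSKMT without parental replicate 1 or 2 or any one of the SGCTRL replicates, with adjusted p up to 0.169 and 0.149. With the term for the library split none of these 4 differences passed, at values of 0.63, 0.64, 0.53 and 0.60. SGCTRL serves as control in one set of comparisons and as test in the other, so they share its libraries.

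Set against parental cells, the knockout lines changed places. SG12 was above parental cells for UQCC3 by 0.51 ± 0.15 in FBS (adjusted p = 0.00718) and 0.72 ± 0.13 in LPDS (adjusted p = 6.94e-05). For CSKMT it was above by 0.53 ± 0.16 (adjusted p = 0.0121) and 0.73 ± 0.14 (adjusted p = 0.000229). All 12 libraries of these 2 lines are on the same side of the split by ambiguous reads. In LPDS their shares still differed, at 2.99% to 3.15% in SG12 and 2.60% to 2.65% in parental cells. SG21 did not pass against parental cells, at -0.04 ± 0.15 in FBS (adjusted p = 0.883) and -0.25 ± 0.13 in LPDS (adjusted p = 0.223) for UQCC3. CSKMT in SG21 differed by -0.11 ± 0.17 (adjusted p = 0.664) and -0.18 ± 0.14 (adjusted p = 0.469). Of all tested entries 26.5% passed in FBS and 9.51% in LPDS for SG12 against parental cells, and 24.2% and 11.3% for SG21. Each knockout line thus passed against 1 of the 2 controls, SG21 against SGCTRL and SG12 against parental cells, and in opposite directions.

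The plus-strand reading under LBHD1 ordered the lines the other way in FBS. SG21 was above SGCTRL by 0.80 ± 0.14 (adjusted p = 7.78e-05), SGCTRL was below parental cells by 0.70 (log2 difference -0.70 ± 0.14, adjusted p = 0.00062), and SG12 did not pass against SGCTRL at 0.29 ± 0.14 (adjusted p = 0.132), though it did without SG12 replicate 3, at 0.43 (adjusted p = 0.0437). In LPDS only SG21 passed against SGCTRL, at 0.53 ± 0.14 (adjusted p = 0.00916), and without SG21 replicate 1 that value was 0.26 (adjusted p = 0.208) and without SGCTRL replicate 3 it was 0.50 (adjusted p = 0.065). Unlike those of the other 2 entries, the LBHD1 values moved when a term for the library split was added. That term rests on SG21 in LPDS, where replicate 1 stands against replicates 2 and 3. With it the difference in FBS was 0.06 for SG21 from SGCTRL and 0.04 for SGCTRL from parental cells. Those of SG12 from SGCTRL turned to -0.45 in FBS and -0.52 in LPDS and did not pass (edgeR, adjusted p = 0.169 and 0.195). Against parental cells SG12 differed by -0.41 ± 0.14 in FBS (edgeR, adjusted p = 0.0281), where the ambiguous shares of the 2 lines were alike. In LPDS, where the SG12 shares were higher, it differed by -0.12 ± 0.14 (edgeR, adjusted p = 0.652).

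**Figure D3:**
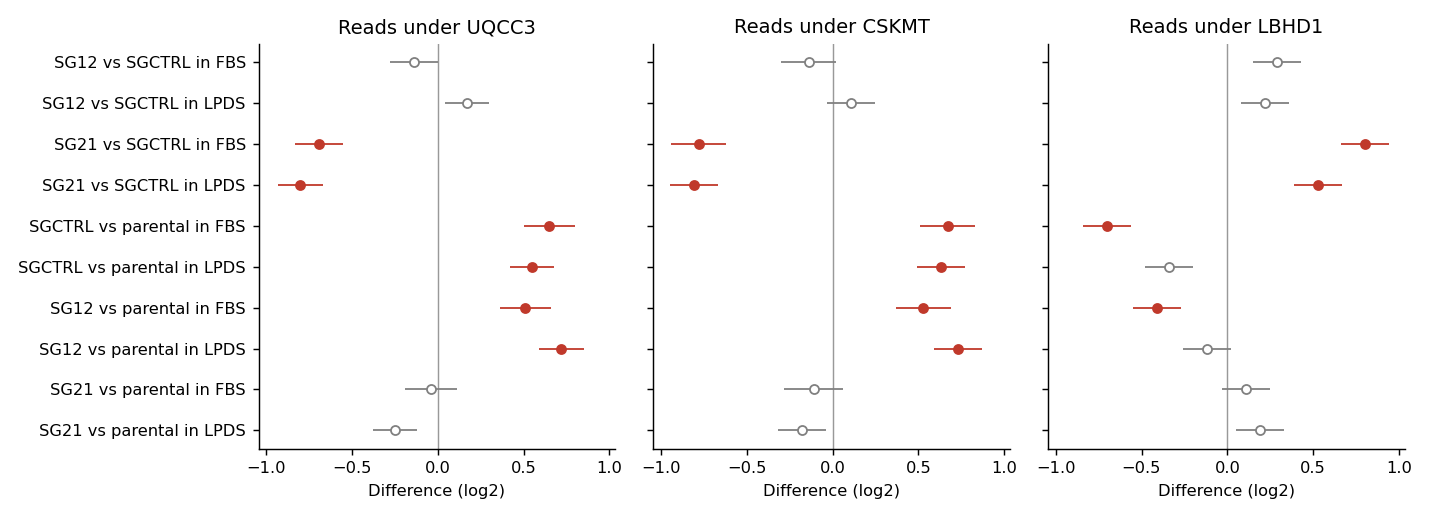
Log2 difference between lines within a medium for each entry, with bars of 1 SE. Filled red points passed an adjusted p of 0.05 and open grey points did not: SG21 is low against SGCTRL and SG12 is high against parental cells for UQCC3 and CSKMT.

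The balance of the 2 minus-strand readings also differed by medium. The ratio of the UQCC3 to the CSKMT value was 1.11 to 1.53 in the 12 FBS libraries and 1.69 to 2.05 in the 12 LPDS libraries, with no overlap. The group mean went from 1.35 ± 0.137 (SD, n = 3) in FBS to 1.87 ± 0.179 in LPDS in the parental line. It went from 1.34 ± 0.113 to 1.77 ± 0.0677 in SGCTRL, from 1.36 ± 0.215 to 1.84 ± 0.0869 in SG12, and from 1.42 ± 0.0363 to 1.77 ± 0.049 in SG21. Per kb of exon overlap with LBHD1 the 2 entries were nearly level in FBS, with UQCC3 first at 103 and 102 CPM for SGCTRL, 93.9 and 92.6 for SG12, 65.9 and 64.1 for parental cells, and 64 and 59.4 for SG21. In LPDS they parted, at 550 and 410, 619 and 442, 376 and 265, and 315 and 234 CPM per kb in the same order. UQCC3 overlaps the exons at the 5′ end of LBHD1 and CSKMT an inner one, so the entry with the larger rise is the one toward the 5′ end. This scale counts exon overlap only and takes intron reads as if they came from it.

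**Figure D4:**
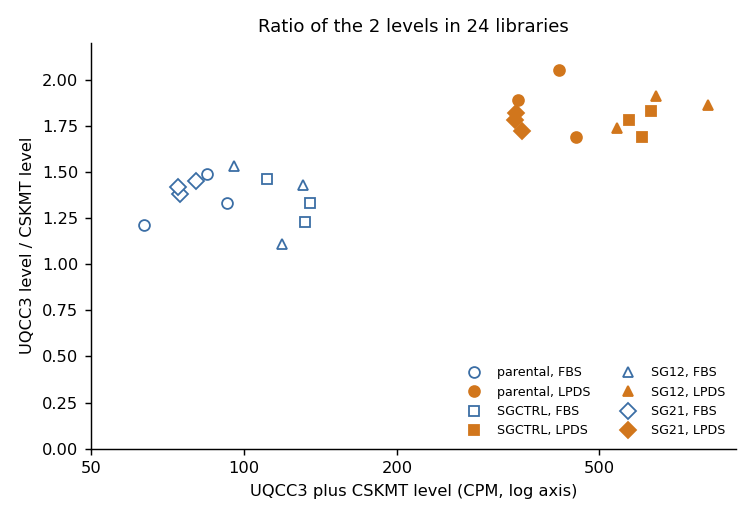
Ratio of the UQCC3 to the CSKMT level against their sum (CPM, log axis) in 24 libraries, open for FBS and filled for LPDS, with a symbol per line. FBS libraries lie between 1.11 and 1.53 and LPDS libraries between 1.69 and 2.05.

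The balance of the 2 strands shifted with the medium. UQCC3 and CSKMT together were 0.252 ± 0.0824 (SD, n = 3) of the LBHD1 value in parental cells in FBS and 1.67 ± 0.27 in LPDS. The ratio went from 0.615 ± 0.0636 to 3.15 ± 0.206 for SGCTRL, from 0.461 ± 0.0799 to 3.04 ± 0.775 for SG12 and from 0.214 ± 0.00696 to 1.34 ± 0.425 for SG21. By group mean the plus-strand reading was the larger in FBS and the smaller in LPDS. Replicate 1 of SG21 in LPDS, the one library of that group with a higher ambiguous share, was an exception at 0.904, so the turn in SG21 rests on replicates 2 and 3, at 1.36 and 1.75.

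No tested neighbour passed in all 4 lines. Within 250 kb of the 3 genes the tables hold 53 other entries, of which 26 were tested. In parental cells 0 of 26 rose with LPDS and 1 fell. In SGCTRL and in SG21 0 of 26 passed (edgeR; DESeq2 also 0; 4 and 5 at an unadjusted p under 0.05). In SG12 6 rose and 3 fell. Over all tested entries 4.55% passed in parental cells, 2.33% in SGCTRL, 3.83% in SG21 and 22.5% in SG12, so the first 3 counts are near what so few entries would hold at those shares. Median log2 differences were -0.05, 0.01, 0.24 and 0.07 in parental, SGCTRL, SG12 and SG21 cells, against -0.012, 0.001, 0.021 and 0.013 over all tested entries. The entry that fell in parental cells, named after its value was seen, was that of AHNAK, a very large scaffold protein. It stood at -1.37 ± 0.29 there (edgeR, adjusted p = 0.00272) and fell in SG12 as well, at -1.54 ± 0.34 (adjusted p = 0.000505). In SGCTRL the AHNAK entry was at 0.02 ± 0.34 and in SG21 at 0.56 ± 0.40, and neither passed. Like other entries it mostly holds the other strand, where no gene met the overlap rule for a source.

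The nearest tested neighbours on the left are INTS5, a subunit of the Integrator complex, GANAB, the glucosidase II alpha subunit, and ROM1 and EML3, which read each other. None of them passed in any line. INTS5, whose midpoint lies at -20.2 kb from the start of UQCC3, had 1.67 to 4.09 CPM and GANAB 3.03 to 13.3 CPM by group, so these readings are thin. On the right UBXN1, a ubiquitin-binding protein and the next minus-strand gene before LBHD1, has its midpoint 7.54 kb to the right of the start of UQCC3. It had 3.2 to 9.49 CPM, and its log2 difference was -0.62 ± 0.49 in parental cells, 0.05 ± 0.56 in SG12 and 0.54 ± 0.55 in SG21. Its own entry reads the plus strand, so minus-strand RNA of UBXN1 was not measured here. GNG3, which reads BSCL2, the lipid droplet protein seipin, rose in SG12 by 1.34 ± 0.30 (adjusted p = 0.000663) and had 0.56 ± 0.29 in parental cells, 0.21 ± 0.28 in SGCTRL and 0.09 ± 0.27 in SG21. ENSG00000267811, which reads TAF6L, a subunit of histone acetyltransferase complexes, rose in SG12 by 0.65 ± 0.23 (adjusted p = 0.0361), and the TAF6L entry itself passed in no line.

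**Figure D5:**
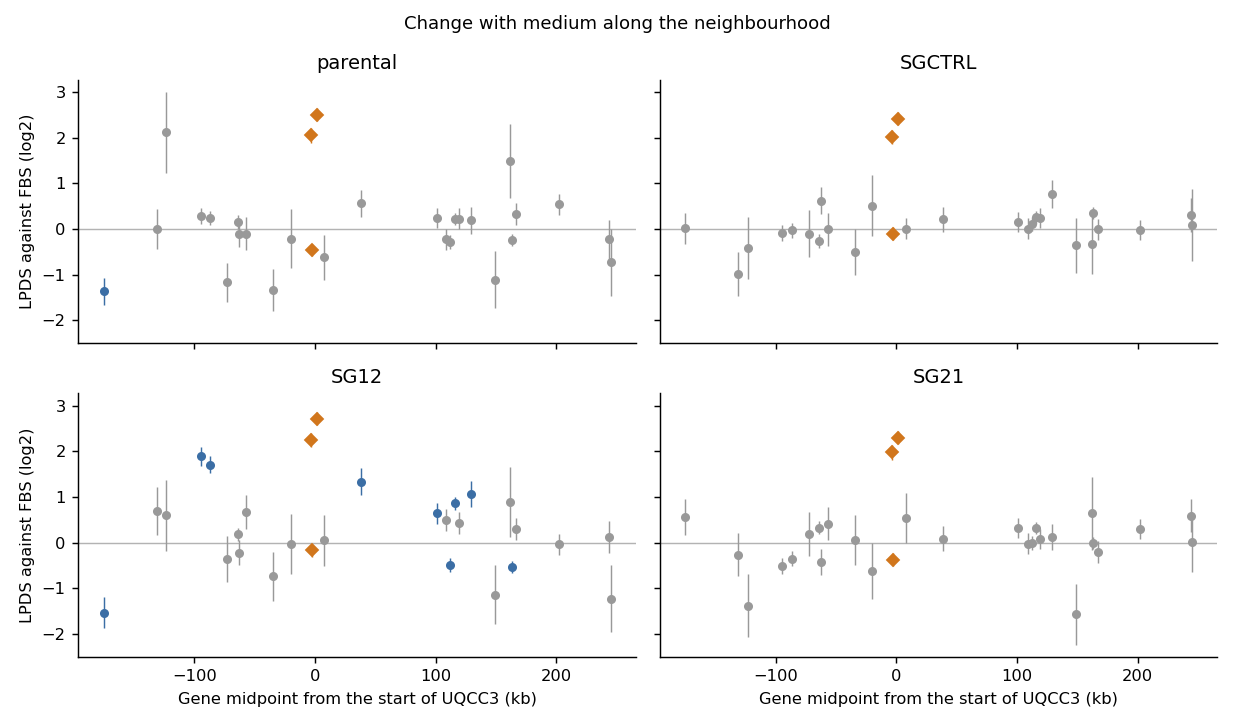
Log2 difference between LPDS and FBS for tested entries within 250 kb, against the distance of each gene's midpoint from the start of UQCC3 in kb, 1 panel per line, with bars of 1 SE. Orange diamonds are UQCC3, CSKMT and LBHD1 (not tested), blue points passed an adjusted p of 0.05, and grey points did not. No neighbour reaches UQCC3, whose values are 2.30 to 2.72. In parental cells ENSG00000257058, at 2.12 ± 0.89 (not passed), lies above CSKMT at 2.05 ± 0.16.

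4 lists of mitochondrial genes, picked for the roles of the UQCC3 and CSKMT proteins, gave few calls, and few of their genes could be read. The UQCC3 and CSKMT entries themselves hold mostly minus-strand RNA, not the messages for those proteins. They were complex III subunits, complex III assembly factors, tricarboxylic acid cycle enzymes and mitochondrial methyltransferases, with 54 names in all, older symbols included. Read by the gene on the opposite strand, 19 entries were tested, with 1 call each in parental cells and SG12 and 0 in SGCTRL and SG21 (edgeR; DESeq2 also 0 in SGCTRL and SG21; 2 and 4 at an unadjusted p under 0.05). These 2 calls, named after their values were seen, were BCS1L, the AAA protein that inserts the Rieske subunit into complex III, read under ZNF142 at 0.61 ± 0.17 in parental cells (adjusted p = 0.0244), and IDH3G, a subunit of isocitrate dehydrogenase, read under SSR4 at 0.34 ± 0.12 in SG12 (adjusted p = 0.0301). The shares over all tested entries, 4.55%, 2.33%, 22.5% and 3.83% in parental, SGCTRL, SG12 and SG21 cells, would leave few calls among 19 in any line but SG12. By source gene the subunits gave 2 tested entries and no call in any line, and the methyltransferases 3 entries and no call. Median log2 differences of the subunits were -0.12, -0.07, 0.05 and -0.47 in parental, SGCTRL, SG12 and SG21 cells, and of the cycle enzymes 0.04, 0.01, -0.12 and 0.01.

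Counted under the genes' own names, which mostly hold reads of the other strand, 30 entries of these lists were tested. In SG12 2 rose and 4 fell, in SG21 1 rose and 3 fell, and in parental cells 0 rose and 2 fell, beside 22.5%, 3.83% and 4.55% of all tested entries. The SG21 count was 0 with the term for the library split. SGCTRL gave 0 (edgeR; DESeq2 also 0; 3 at an unadjusted p under 0.05). DLD, dihydrolipoamide dehydrogenase, was the one entry to pass in 2 lines, at -0.38 ± 0.11 in SG21 (adjusted p = 0.0258) and -0.51 ± 0.10 in SG12 (adjusted p = 0.000187), and its SG21 call is among those lost with that term. Of 7 sterol genes read on the opposite strand, 6 rose in SG12, 6 in parental cells, 5 in SG21 and 3 in SGCTRL. Over all 12822 tested entries 1476, 282, 240 and 169 rose in the same order. Under their own names 9 sterol entries were tested, of which 1, 0, 2 and 0 rose in that order. None fell in either reading.

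Entries were ranked by likeness to the UQCC3 pattern over the 8 groups, with no cut and no test. Likeness was the root mean square difference of log2 group means (CPM plus 0.5), each centred on its own average, among 11833 tested entries with a mean of at least 2 CPM. LBHD1 was at 1.50, in place 9578. CSKMT was nearest at 0.21, but it was chosen for the same rise and also reads mostly minus-strand RNA. The next was ENSG00000226334, an antisense RNA gene on chromosome 9, at 0.41, with group means of 36.3 and 125 CPM in FBS and LPDS in parental cells and 50.2 and 223 CPM in SG12. GCNT1, at 0.42, and PCA3, at 0.49, both overlap PRUNE2 on its other strand, and so count as 1 source. PCA3 went from 94.9 to 307 CPM in parental cells and from 107 to 301 CPM in SGCTRL. GPR3, a G protein-coupled receptor, was at 0.44 but with at most 6.98 CPM in any group, and ENSG00000253227 was at 0.57 with at most 14.8 CPM. Over the 24 single libraries in place of the group means, 4 of these 6 remained among the nearest 6. Fewer cells that make an RNA and less of it per cell cannot be told apart in such bulk samples.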

How the data were processed

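The members and gene lists were chosen with earlier results of these data known. Libraries were made from total RNA with a stranded Illumina kit that depletes ribosomal RNA, per the labels' protocols. The submitters' processing notes name bcl2fastq, STAR and the hg38 build. What counted the reads, with which strand setting and annotation, is not given in the sources used here. The authors deposited whole-number read counts per gene name for each library, with 5 closing entries (no gene, ambiguous and the like), which stayed out of library sizes.

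The counts were fitted in R 4.3.3 with edgeR 4.0.16: filterByExpr (12822 of 61578 names), TMM scaling, robust dispersions, 1 mean per group over 24 libraries, the quasi-likelihood test, and Benjamini-Hochberg adjustment over all tested names within each comparison, with a pass at 0.05. SE is the log2 difference over the square root of F. CPM are TMM-scaled. Names were matched to GENCODE release 29 (56681 matched). An entry reads an opposite-strand gene where their exons overlap by at least 50 bases and that gene makes up at least 80% of such overlap (10131 entries). The fit was tested on simulated counts. Named are the 3 members, the 4 nearest tested neighbours on each side, the 6 entries most like UQCC3, list entries passing in at least 2 lines, IFT20, and the entries reading HMGCS1 and LSS. Alternatives were DESeq2 1.42.0, other filters (none, or 1 CPM in 3 libraries), library sizes from every uniquely aligned read, the compared groups alone, a term for the library split at 2.4% ambiguous reads, the replicate block, parental cells as control, a 500 kb window, other likeness settings and each library left out. SG21 in LPDS with replicate 1 alone was added after seeing the data. Replicates are biological, per the labels.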

Additional observations from a re-analysis of the deposited data

How the results depend on the processing

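The UQCC3 and CSKMT differences between media kept their sign in all 53 recomputed values of each (4 lines, all alternatives run), from 2.27 to 2.80 and from 1.90 to 2.31. A term for the library split moved LBHD1 from -0.37 to 0.08 for LPDS against FBS in SG21 (0.07 with replicate 1 alone), to -0.45 and -0.52 for SG12 against SGCTRL in FBS and LPDS, to 0.06 and 0.24 for SG21 against SGCTRL, and to 0.04 and 0.40 for SGCTRL against parental cells. It ended the calls of UQCC3 and CSKMT for SG21 against SGCTRL in FBS (-0.67 and -0.75) and for SGCTRL against parental cells (0.63 and 0.64 in FBS, 0.53 and 0.60 in LPDS), while those for SG21 against SGCTRL in LPDS held. Since every SGCTRL library has a low ambiguous share, this term rests on the SG21 libraries in LPDS.

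With parental cells as control UQCC3, CSKMT and LBHD1 gave 0.51, 0.53 and -0.41 for SG12 in FBS, 0.72, 0.73 and -0.12 in LPDS, -0.04, -0.11 and 0.11 for SG21 in FBS, and -0.25, -0.18 and 0.19 in LPDS. With the compared groups alone LBHD1 passed for SG12 against SGCTRL in FBS (0.31) and for SGCTRL against parental cells in LPDS (-0.37), and no longer for SG21 against SGCTRL in LPDS (0.52). The cause was not tested.

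With 1 library left out, UQCC3 ranged from -0.16 to 0.02 for SG12 against SGCTRL in FBS, from -0.00 to 0.33 in LPDS, and from 0.45 to 0.60 for SGCTRL against parental cells in LPDS. CSKMT ranged from -0.18 to 0.09, from -0.06 to 0.24 and from 0.51 to 0.71 in these. CSKMT was above 0 in FBS without SGCTRL replicate 2 (0.02) and without SG12 replicate 1 (0.09). LBHD1 ranged from 0.30 to 0.43 for SG12 against SGCTRL in FBS, with a call gained at 0.43 without SG12 replicate 3, and from 0.26 to 0.71 for SG21 against SGCTRL in LPDS.

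Passing neighbours ranged from 0 to 2 in parental cells and from 0 to 2 in SG21, and numbered 1 in SG21 with the 500 kb window and 1 in SGCTRL with the compared groups alone. Passing mitochondrial list entries by own name ranged from 0 to 3 in parental cells and from 2 to 5 in SG21. By source gene they ranged from 0 to 1 in parental cells, from 0 to 2 in SG12 and from 0 to 2 in SG21. With the compared groups alone they numbered 1 in parental cells, 2 in SGCTRL and 2 in SG21 by own name, and 0 in parental cells and 2 in SG12 by source gene. The library split gave 2 in SG12 by source gene and 0 in SG21 by own name, no count filter gave 0 in SG12 by source gene, and SG21 replicate 1 alone gave 0 by own name.

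Replicate numbers did not pair the samples: correlations of same-numbered libraries between media were -0.13 to 0.18. With the replicate block 2 neighbours passed in parental cells, in place of 1, and no call of the 3 entries changed. Depth of 84 to 204 reads limits CSKMT in FBS.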
